A study of Rattus norvegicus with 18 samples.

Results

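Cyclic mechanical stretch (CMS) was compared with serum (FBS) in mesenchymal stem cells (MSCs) that lack miR-337, using the 6 libraries labelled miR-337-/- (KO) and CMS or FBS, 3 of each, out of the 18 RNA-seq libraries of the series. The cells came from bone marrow of 2-month-old SD rats and were taken at passage 3. They were starved of serum for 8 h and then given 10% cyclic stretch or FBS for 24 h by the sample labels. The methods of the study give a shorter treatment. The groups thus differ in stretch and in FBS at once, and effects of stretch and of FBS cannot be told apart in this comparison. The 3 KO libraries kept without serum (SSt, 24 h) entered the fit only to share its estimate of the spread, and the 9 wild-type (WT) libraries of the same strain, age and 3 treatments served for a test of the difference between genotypes. Every KO library, CMS or FBS, comes from rats labelled miR-337-/-, so the controls carry the deletion too, and by the study's methods the cells adhered to flexible-bottomed plates before starvation. No source says if the replicates are separate rats or cultures, and p-values then cover only the spread between the libraries, which may be technical. Values are FPKM, which is the read count scaled to transcript length and library depth, and levels of different genes are compared only on that scale. Of 32623 genes, the 12888 that reached an FPKM of 1 in 3 or more of the 9 KO libraries were tested with edgeR.

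MSCs are stromal cells of the marrow that can form bone, cartilage and fat, and they respond to both growth factors in serum and to mechanical load. Stretch acts on cells through ion channels, integrins and the actin cytoskeleton, and one well known output is the activity of YAP and TAZ, coactivators that work with TEAD factors. Serum acts through growth factor receptors and PI3K, Akt and mTOR, a pathway that couples nutrient supply to growth and division. A miRNA pairs with its targets mainly through its seed, bases 2 to 8, and lowers their mRNA or translation.

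The deleted miRNA is shown first, since it is what all 6 libraries share. In the rat assembly GRCr8 the RefSeq hairpin lies on chromosome 6, plus strand, from 134321142 to 134321238. Both mature arms are given with the seed in capitals.
rno-miR-337-3p: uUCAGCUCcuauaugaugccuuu
rno-miR-337-5p: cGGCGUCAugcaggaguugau
The 3p arm covers bases 134321201 to 134321223 and the 5p arm bases 134321170 to 134321190. The table's row for Mir337 held 0 counts in all 18 libraries, WT included, so these long-RNA libraries do not check the knockout.

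Depth ran from 57.12 to 71.08 M counts (median 58.46 M) in KO CMS and from 56.08 to 63.71 M (median 58.54 M) in KO FBS. KO FBS replicate 1 stood apart. Its log2 CPM (counts scaled to library size) correlated at a mean r of 0.979 with the other 2 FBS libraries and 0.982 with the 3 CMS libraries, across genes, which are not independent replicates. KO FBS replicates 2 and 3 correlated at 0.986 and 0.984 within FBS and at 0.977 and 0.973 with CMS. KO FBS replicate 1 was the highest of the 6 libraries for 2010 genes (15.6%) and the lowest for 2728 (21.2%). If all libraries were alike, each would have a share of 1 in 6, so these shares alone do not set it apart. Because of its correlations, counts over gene lists are given with and without it. The labelled cell type was checked against markers. Summed over 15 tested MSC and stromal markers the level was 1641.5 to 1687.8 FPKM in KO CMS and 1632.1 to 1813.4 in KO FBS. Lepr, the leptin receptor that marks a marrow MSC subset, read 0.0700, 0 and 0.00247 FPKM in KO CMS and 0.0263, 0 and 0 in KO FBS. Macrophage markers were high in all 6 libraries, at a summed 5619.8 to 6105.6 FPKM over 21 genes in KO CMS and 5930.4 to 7021.7 in KO FBS. The libraries labelled SSt had the highest levels of genes for division, with a mean of 42.1 ± 4.14 FPKM (SD, n = 3) for the proliferation marker Mki67.

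KO MSCs under stretch had lower levels of genes for DNA replication, mitosis and MHC class II than KO MSCs in FBS, and higher levels of antioxidant and chaperone genes, of the heme oxygenase Hmox1 and of the lipid droplet gene Plin2. How many genes of division, glycolysis and inflammation passed depended on KO FBS replicate 1. With all libraries 1910 genes passed an adjusted p under 0.05 (edgeR quasi-likelihood test, Benjamini-Hochberg adjustment over all genes tested), 868 higher in CMS (6.73% of genes tested) and 1042 lower (8.09%). Of these 337 also differed by at least 2-fold, 73 higher (0.566%) and 264 lower (2.05%). Without KO FBS replicate 1 the numbers were 3158 (24.5%), of which 1514 were higher (11.7%) and 1644 lower (12.8%). Past 2-fold there were then 554 (4.3%), of which 156 were higher (1.21%) and 398 lower (3.09%). Both fits shared 1802 genes, each in the same direction, which is 94.3% of the genes past the limit with all libraries and 57.1% of those without replicate 1. The 3 CMS and 3 FBS libraries did not overlap for 3926 genes, 30.5% of those tested. Below, a gene passed when its adjusted p was under 0.05, whatever its fold, and lists of genes are set against the 6.73% and 8.09% of all genes, or against 11.7% and 12.8% without replicate 1. The median log2 fold change of all genes tested was -0.01 with all libraries and 0.00 without replicate 1.

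**Figure D1:**
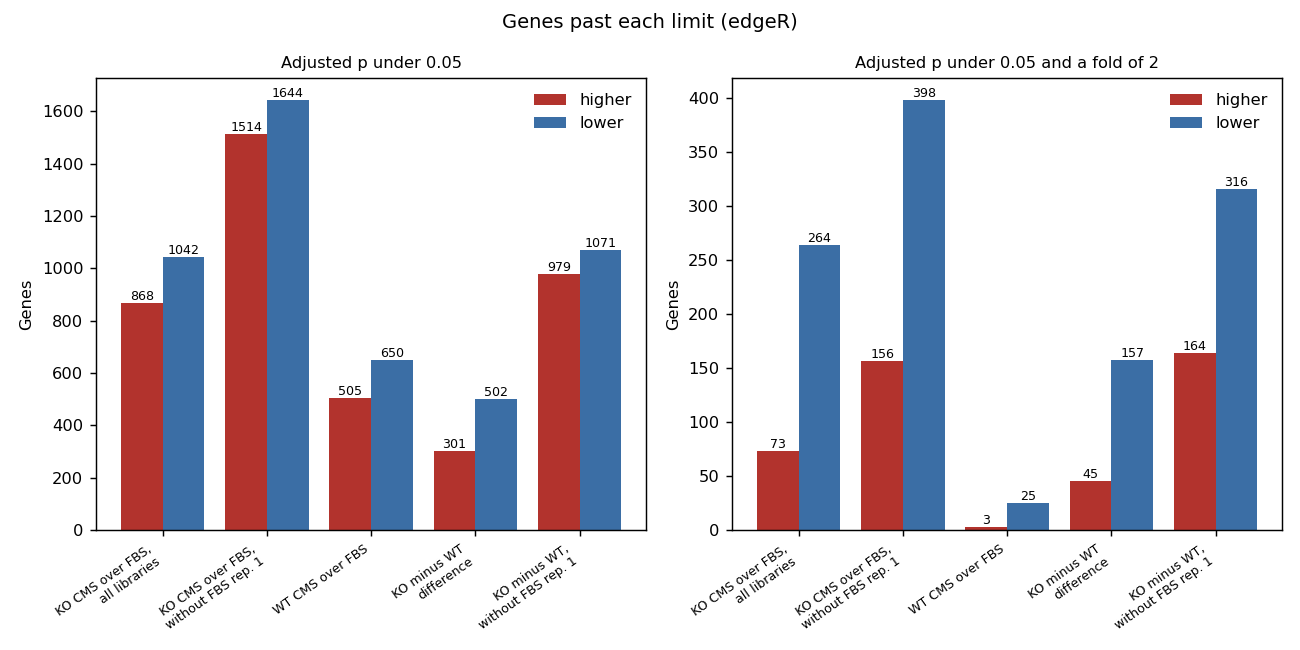
Number of genes past an adjusted p under 0.05 (left) and past a 2-fold limit as well (right), by edgeR, with red bars for higher and blue bars for lower in CMS or, for the differences, in KO. Leaving out KO FBS replicate 1 moves the 2-fold counts in KO MSCs from 73 and 264 to 156 and 398, and WT MSCs have 3 and 25.

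DNA replication genes were lower in stretched KO MSCs. Of 47 tested members 30 were lower and 1 was higher with all libraries, and 46 were lower and 1 was higher without KO FBS replicate 1. The exception in both is Lig1, a DNA ligase named here after its values were seen (log2 fold change 0.43 in each fit). The median log2 fold change was -0.79 with all libraries and -1.01 without replicate 1. Summed over the list, levels were 243, 231 and 227 FPKM in KO CMS, against 253, 432 and 415 FPKM in KO FBS replicates 1, 2 and 3. The serum library that stood apart was just above the stretched ones.

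Mcm6, a subunit of the helicase that opens replication origins, read 5.58, 5.65 and 5.07 FPKM in KO CMS, against 7.05, 14.3 and 13.3 FPKM in KO FBS. Its log2 fold change was -1.03 (SE 0.209, edgeR adjusted p = 0.014) and -1.28 without replicate 1 (SE 0.0662, adjusted p = 2.99e-05). The groups did not overlap, and the lowest FBS value was that of replicate 1. Mcm5, another subunit, read 3.05, 2.39 and 2.14 FPKM in KO CMS and 4.57, 11.7 and 11.1 FPKM in KO FBS (log2 fold change -1.79, edgeR adjusted p = 0.00638). Uhrf1, which carries DNA methylation through replication, read 2.07, 1.98 and 1.95 FPKM in KO CMS and 3.02, 8.56 and 8.38 FPKM in KO FBS (-1.67, edgeR adjusted p = 0.0105). All 3 genes have the same order, with replicate 1 of FBS between the stretched libraries and the other serum libraries. Ccne2, a cyclin of the start of S phase, was lower as well (-1.65, edgeR adjusted p = 0.00263).

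Mitosis genes were lower for 27 of 39 tested members with all libraries and for all 39 without replicate 1, and 0 were higher in either fit. The median log2 fold changes were -1.17 and -1.48. Summed levels were 108, 81.8 and 81.8 FPKM in KO CMS and 107, 254 and 261 FPKM in KO FBS. Here replicate 1 of FBS lay inside the range of the stretched libraries. Mki67 read 5.14, 3.84 and 3.49 FPKM in KO CMS, against 5.06, 14.8 and 17.1 FPKM in KO FBS. The log2 fold change was -1.51 (SE 0.368, edgeR adjusted p = 0.0283), and -1.87 without replicate 1 (SE 0.15, adjusted p = 0.000102). The groups overlap only through that library. Cdk1, the kinase that starts mitosis, had 6.98, 4.84 and 4.53 FPKM in KO CMS and 7.43, 15.1 and 18.7 FPKM in KO FBS (log2 fold change -1.27, edgeR adjusted p = 0.0211). Ccnb1, its cyclin partner, passed only without replicate 1 (-0.98, edgeR adjusted p = 0.112, and -1.33, adjusted p = 0.00114).

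Of 9 CDK inhibitors and pocket proteins, which hold the cell cycle back, 3 were lower and 0 higher with all libraries. They were Rbl1 (-0.75), Cdkn2c (-0.96) and Rbl2 (-0.22). Without replicate 1 Cdkn1a, the p21 inhibitor (0.30, edgeR adjusted p = 0.00893), and Rb1 (0.19) were higher as well.

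Promoters of the DNA replication and mitosis lists were searched for motifs known for cell cycle genes. The search covers whole lists, so its shares do not depend on the changes seen here. RefSeq promoters of GRCr8, from 250 bases before to 50 after the start, were matched by symbol and read on both strands. The E2F-type letters TTTNNCGC occur in 18 of 40 matched DNA replication promoters (45%) and in 5.19% of all 27457 promoters. The CHR letters TTTGAA occur in 22 of 32 mitosis promoters (68.8%) and in 18.1% of all. A match describes the letters and not a binding site, and a part of these motifs in the changes was not tested. The stretches below, with the motif in capitals and 22 bases on each side, show where it stands in some of the genes whose values are given above. Uhrf1 and Ccnb1 had no match before the start site with both flanks, and Ccne2 had no promoter entry. Ccnb2 is added as a further mitotic cyclin, but its name is not among the counted genes, so it has no value here.
Mcm6 (chr13:42404458-42404509, minus strand): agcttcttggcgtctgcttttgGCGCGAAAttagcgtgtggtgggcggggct
Mcm5 (chr19:13488582-13488633, plus strand): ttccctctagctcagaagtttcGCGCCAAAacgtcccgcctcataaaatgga
Mki67 (chr1:199952665-199952714, minus strand): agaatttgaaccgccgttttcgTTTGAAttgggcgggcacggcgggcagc
Cdk1 (chr20:19265199-19265248, plus strand): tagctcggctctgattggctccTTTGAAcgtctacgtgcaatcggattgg
Ccnb2 (chr8:79981674-79981723, minus strand): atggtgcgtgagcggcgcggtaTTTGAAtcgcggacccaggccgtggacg
In Mcm6 and Mcm5 the letters are those of the opposite strand. Counted to the start site, the motif begins at -135 in Mcm6, -209 in Mcm5, -99 in Mki67, -72 in Cdk1 and -43 in Ccnb2.

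**Figure D2:**
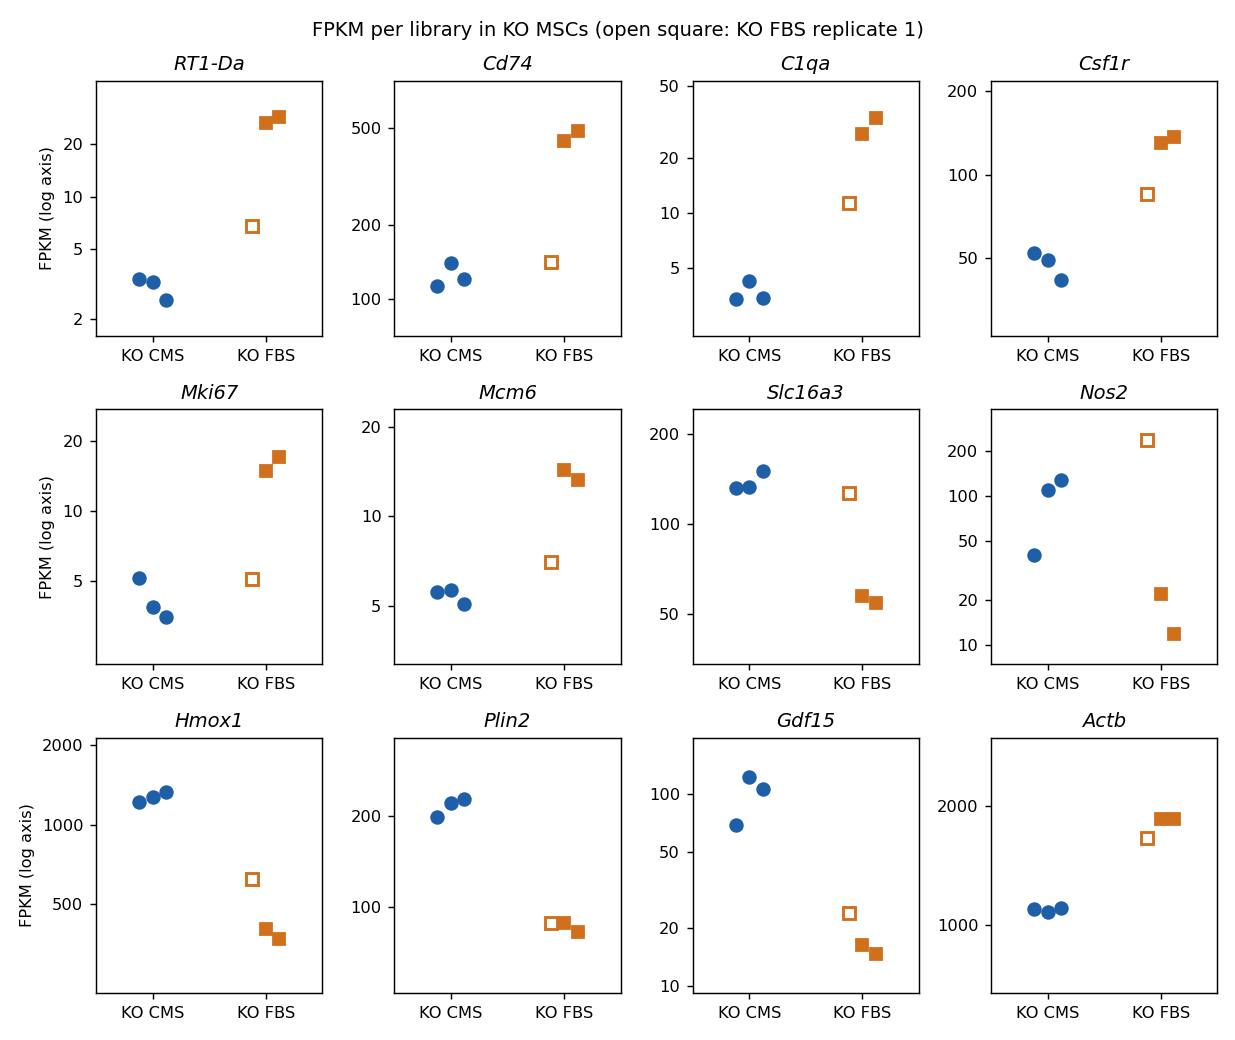
FPKM on a log axis of single genes in each KO library, with CMS left of FBS and KO FBS replicate 1 marked. For Mki67 and Mcm6 the marked library lies near or among the CMS libraries, while Plin2, Hmox1 and Actb separate the groups whether or not it is counted.

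MHC class II genes and their regulator were much lower in stretched KO MSCs, and none of the 6 genes that passed in KO passed in WT. MHC class II molecules show peptides to T cells and are made mainly by macrophages, dendritic cells and B cells. Of 14 antigen presentation genes 6 were lower and 0 higher with all libraries. Ciita, the coactivator that switches on class II genes, read 0.0993, 0.0664 and 0.0955 FPKM in KO CMS, against 0.694, 2.91 and 3.16 FPKM in KO FBS (log2 fold change -4.59, SE 0.553, edgeR adjusted p = 0.00157, and -5.01 without replicate 1). RT1-Da, a class II alpha chain, read 3.39, 3.28 and 2.56 FPKM in KO CMS, against 6.81, 26.2 and 28.6 FPKM in KO FBS. Its log2 fold change was -2.67 (SE 0.44, edgeR adjusted p = 0.00589), and -3.08 without replicate 1 (SE 0.106, adjusted p = 7.29e-06). Neither gene overlapped between the groups, and replicate 1 was the lowest serum library in each.

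Cd74, the invariant chain that guides class II molecules, read 113, 140 and 121 FPKM in KO CMS and 141, 441 and 485 FPKM in KO FBS (-1.45, edgeR adjusted p = 0.0302, and -1.82 without replicate 1, adjusted p = 2.45e-05). The class II chains RT1-Ba (-2.81), RT1-Bb (-2.37) and RT1-Db1 (-2.34) completed the 6. RT1-DMa, which helps load peptides and is outside the list, read 6.54, 6.83 and 6.97 FPKM in KO CMS and 21.3, 27.0 and 27.0 FPKM in KO FBS (-1.83, SE 0.0964, edgeR adjusted p = 6.98e-05). Its replicate 1 lay with the other serum libraries. Reads of RT1 genes can be shared among near-identical copies, so the split between single chains is uncertain. Without replicate 1 Ctss, a protease of the same route, was also lower (-0.39), and the class I gene RT1-A2, named after its values were seen, was higher (0.36).

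The letters CCAAT, read on both strands, occur in 10 of 13 matched promoters of the antigen presentation list (76.9%) and in 37.7% of all promoters. The 3 below are shown because a CCAAT box is a known part of class II promoters. All 3 carry it on the opposite strand, in capitals, and its part in the changes was not tested.
RT1-Da (chr20:4515344-4515392, plus strand): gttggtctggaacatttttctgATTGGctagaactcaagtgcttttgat
RT1-Ba (chr20:4576992-4577040, plus strand): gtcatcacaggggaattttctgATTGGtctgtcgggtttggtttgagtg
RT1-Bb (chr20:4604153-4604201, minus strand): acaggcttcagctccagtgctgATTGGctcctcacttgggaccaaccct
Their motifs begin at -49, -43 and -61 from the start site. The strand and position are not shared by all the genes that fell. RT1-Db1 and Cd74 carry CCAAT as written, at -55 and -189. RT1-DMa carries it on the opposite strand at -34, and Ciita had no promoter entry. The same letters occur in 65% of DNA replication and 68.8% of mitosis promoters.

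Markers of macrophages moved with the class II genes, in part. Cd74 and Ctss are members of both this list and the antigen presentation list, so the counts of these lists are not separate. Of 21 tested markers 8 were lower and 0 higher with all libraries, and 10 were lower and 5 higher without KO FBS replicate 1. C1qa, a chain of complement C1q, read 3.37, 4.22 and 3.42 FPKM in KO CMS, against 11.3, 27.0 and 33.1 FPKM in KO FBS (log2 fold change -2.63, SE 0.329, edgeR adjusted p = 0.00174). C1qc was lower by a like amount (-3.18). Csf1r, the receptor of the macrophage growth factor M-CSF, read 52.3, 49.2 and 41.8 FPKM in KO CMS and 85.3, 130 and 136 FPKM in KO FBS (-1.24, edgeR adjusted p = 0.00157). None of these overlapped between the groups. Cd68, a lysosomal protein abundant in macrophages, read 483, 528 and 515 FPKM in KO CMS and 485, 438 and 438 FPKM in KO FBS, with a log2 fold change of 0.21 (edgeR adjusted p = 0.0782) and 0.29 without replicate 1 (adjusted p = 0.00866). Lyz2, the macrophage lysozyme, read 2899.0, 3063.8 and 3072.2 FPKM in KO CMS and 2474.2, 3598.5 and 3618.0 FPKM in KO FBS (-0.05, edgeR adjusted p = 0.833). Besides Cd68, the markers higher without replicate 1 were Adgre1 (1.12), Fcgr2a (0.60), Itgam (0.37) and Spi1 (0.26), named after their values were seen. Cd163 and Marco were at most 0.0258 and 0.0406 FPKM in any KO CMS or FBS library. In bulk libraries fewer cells of a type and less RNA of a gene per cell cannot be told apart, and the part of macrophages in the class II result was not tested.

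Of 16 prostaglandin and eicosanoid genes 3 were higher and 3 lower with all libraries, and 6 and 3 without replicate 1. Among the lower ones, Alox5, the enzyme that makes leukotrienes, fell (log2 fold change -3.91, edgeR adjusted p = 0.000355). Alox5ap, its helper protein, read 5.40, 5.67 and 4.72 FPKM in KO CMS and 15.8, 22.2 and 23.3 FPKM in KO FBS (-1.90, edgeR adjusted p = 0.000236). Stab1, a scavenger receptor, read 9.39, 8.51 and 7.31 FPKM in KO CMS and 35.8, 46.2 and 60.2 FPKM in KO FBS (-2.44, edgeR adjusted p = 0.000187). Emilin2, an extracellular matrix glycoprotein, read 20.2, 18.9 and 16.4 FPKM in KO CMS and 51.1, 49.8 and 53.1 FPKM in KO FBS (-1.42, SE 0.0771, edgeR adjusted p = 6.98e-05). In Emilin2 the 3 serum libraries lay close together, replicate 1 included. Mboat7, a phospholipid acyltransferase, had 0 counts in every CMS library and 1483 counts over the 3 FBS libraries, at least 176-fold lower if each CMS library held 3 counts (edgeR adjusted p = 0.00534). Genes that did not pass also had counts in 1 group only. Wbp11l1 had 0 in CMS and 2920 in FBS (edgeR adjusted p = 0.176), and LOC108348055 had 367 and 0 (adjusted p = 0.127). Whether reads of such genes went to near-identical copies was not tested.

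Most NRF2 targets were higher in stretched KO MSCs, with and without KO FBS replicate 1. Of 21 targets of NRF2, the factor that answers oxidative and electrophilic stress, 14 were higher and 1 was lower with all libraries, and 15 were higher and 2 lower without replicate 1. Hmox1, the heme oxygenase, read 1214.7, 1276.2 and 1332.3 FPKM in KO CMS, against 620, 404 and 369 FPKM in KO FBS (log2 fold change 1.50, SE 0.185, edgeR adjusted p = 0.00166, and 1.79 without replicate 1). Slc7a11, the cystine importer, read 110, 128 and 138 FPKM in KO CMS and 75.1, 46.0 and 35.9 FPKM in KO FBS (1.30, edgeR adjusted p = 0.0106). Prdx1, a peroxidase, read 947, 899 and 970 FPKM in KO CMS and 678, 636 and 528 FPKM in KO FBS (0.66, edgeR adjusted p = 0.00301). The groups overlapped in none of these. Nqo1, a quinone reductase of the same list, read 970.7, 1055.2 and 1080.4 FPKM in KO CMS and 1163.9, 1181.7 and 992.9 FPKM in KO FBS (-0.05, edgeR adjusted p = 0.695). The lower member in both fits was Nfe2l2, the gene of NRF2 itself (-0.33), named after its values were seen, and Sod3 (-0.19), likewise named, was the second one without replicate 1.

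The letters TGACNNNGC of the antioxidant response element, read on both strands, occur in 7 of 17 matched promoters of this list (41.2%) and in 12.2% of all promoters. Of other genes that rose, Slc7a11, Gclc, Cat and Sqstm1 had no match before the start site with both flanks. Hmox1 had no promoter entry. The letters are shown in capitals, on the opposite strand, for a pair of genes that rose.
Prdx1 (chr5:135383749-135383801, plus strand): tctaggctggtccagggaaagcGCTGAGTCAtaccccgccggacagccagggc
Gclm (chr2:213031941-213031993, plus strand): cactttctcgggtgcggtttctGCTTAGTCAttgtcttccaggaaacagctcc
Gclm, a subunit of the enzyme that starts glutathione synthesis, read 14.8, 14.9 and 14.5 FPKM in KO CMS and 9.15, 10.7 and 8.92 FPKM in KO FBS (log2 fold change 0.67, edgeR adjusted p = 0.00227). The motif begins at -135 in Prdx1 and at -172 in Gclm.

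Chaperones and genes of the amino acid response were higher by small amounts. Of 24 heat shock and ER chaperones 15 were higher and 0 lower with all libraries, and 16 and 0 without replicate 1. Hsph1, a partner of HSP70, read 62.8, 62.0 and 67.5 FPKM in KO CMS and 52.2, 43.7 and 40.0 FPKM in KO FBS (log2 fold change 0.55, edgeR adjusted p = 0.0107). Hspa4l, from the same family, had the largest rise of those named (2.21, edgeR adjusted p = 0.00168). Of 23 genes of ATF4, the factor that answers amino acid shortage and ER stress, 8 were higher and 1 was lower, the secreted hormone gene Stc2 (-0.54), named after its values were seen, and without replicate 1 the counts were 11 and 3. Atf4 itself read 217, 230 and 229 FPKM in KO CMS and 168, 169 and 162 FPKM in KO FBS (0.49, SE 0.0458, edgeR adjusted p = 0.00056). Its target Trib3, a pseudokinase, had 17.2, 19.9 and 20.6 FPKM in KO CMS and 10.6, 11.0 and 11.3 FPKM in KO FBS (0.86, edgeR adjusted p = 0.000557). All 3 serum libraries were alike for Atf4 and Trib3.

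Gdf15, a stress-induced hormone of the TGF-beta family, read 69.1, 122 and 106 FPKM in KO CMS, against 24.2, 16.4 and 14.8 FPKM in KO FBS (log2 fold change 2.47, SE 0.268, edgeR adjusted p = 0.00101). The groups did not overlap. Among 21 FOXO targets and autophagy genes 4 were higher and 0 lower, and 6 and 0 without replicate 1. The 4 were Sqstm1, the autophagy receptor p62 (1.04, edgeR adjusted p = 0.000557), Gabarapl1 (0.55), Foxo4 (0.20) and Tfeb (0.51).

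Plin2, the coat protein of lipid droplets, read 199, 222 and 229 FPKM in KO CMS, against 88.1, 88.1 and 82.4 FPKM in KO FBS (log2 fold change 1.38, SE 0.0700, edgeR adjusted p = 6.98e-05). Mgll, a lipase that releases fatty acids from monoglycerides, read 51.4, 54.3 and 50.2 FPKM in KO CMS and 7.29, 14.7 and 12.6 FPKM in KO FBS (2.23, edgeR adjusted p = 0.000595). Replicate 1 of FBS was the lowest there, farther from CMS than the other serum libraries. Of 15 fatty acid synthesis genes 5 were higher and 0 lower, Me1, malic enzyme (0.77), Scd2, a desaturase (0.59), Srebf1 (0.34), Slc25a1 (0.19) and Acaca (0.23), the last named after its values were seen, and the other 4 passed without replicate 1 as well. Pc, pyruvate carboxylase, was higher as well (1.24, edgeR adjusted p = 7.45e-05). Of 25 sterol genes 3 were higher and 0 lower, and 3 and 4 without replicate 1, where the list's median turned to -0.07, against 0.03 with all libraries. Fdps (0.27) and Fdft1 (0.19), enzymes of the route, were among the higher ones in both fits.

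Among 11 tested adipocyte genes 2 were higher and 1 was lower, the adipose complement factor Cfd (-1.30), and 2 and 2 without replicate 1. Members below the filter included Pparg, at most 1.29 FPKM in any KO CMS or FBS library, Adipoq (0.08), Plin1 (0.0679) and Cidec (0.0727). Fabp4, the fatty acid carrier of fat cells, showed how far 1 library can reach, with 258, 311 and 244 FPKM in KO CMS and 40.4, 249 and 208 FPKM in KO FBS (log2 fold change 0.77, edgeR adjusted p = 0.346, and 0.32 without replicate 1, adjusted p = 0.0899). Lpl, lipoprotein lipase, read 28.8, 31.8 and 27.3 FPKM in KO CMS and 14.2, 61.7 and 62.5 FPKM in KO FBS, and passed only without replicate 1 (-0.59, edgeR adjusted p = 0.403, and -1.01, adjusted p = 6.89e-05).

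Glycolysis genes were higher in stretched KO MSCs for 5 of 26 tested members with all libraries and for 20 without KO FBS replicate 1, and 0 were lower in either fit. The 5 were Pgk1 (0.51), Hk2 (0.50), Tpi1 (0.64), Pfkp (0.56) and Pfkfb3 (1.84). Slc16a3, the lactate exporter, read 132, 133 and 151 FPKM in KO CMS, against 126, 57.5 and 54.2 FPKM in KO FBS. It did not pass with all libraries (log2 fold change 0.84, SE 0.306, edgeR adjusted p = 0.103) and did without replicate 1 (1.38, SE 0.111, adjusted p = 0.000102). Slc2a1, the glucose transporter GLUT1, behaved likewise (0.64, edgeR adjusted p = 0.146, and 1.08, adjusted p = 0.000228). Pfkfb3, which makes the activator of phosphofructokinase, read 54.1, 32.6 and 57.6 FPKM in KO CMS and 18.6, 11.1 and 11.9 FPKM in KO FBS (1.84, edgeR adjusted p = 0.0136). Summed glycolytic levels were 7933.9, 7923.3 and 8614.5 FPKM in KO CMS and 8039.8, 5989.7 and 5636.3 FPKM in KO FBS, which places replicate 1 inside the stretched range.

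Inflammatory effectors passed only without that library. Of 24 targets of NF-kB, a factor of inflammation, 0 were higher and 0 lower with all libraries, and 7 were higher and 0 lower without KO FBS replicate 1. Nos2, which makes nitric oxide, read 40.4, 109 and 129 FPKM in KO CMS, against 239, 22.01 and 11.8 FPKM in KO FBS. Its log2 fold change was 0.05 (SE 0.979, edgeR adjusted p = 0.981), and 2.53 without replicate 1 (SE 0.524, adjusted p = 0.00937). Replicate 1 was the highest of the 6 libraries and the other serum libraries the lowest. The neutrophil chemokine Cxcl2 read 64.6, 165 and 203 FPKM in KO CMS and 196, 26.3 and 13.2 FPKM in KO FBS (0.90, edgeR adjusted p = 0.548, and 2.94, adjusted p = 0.00527 without replicate 1). Serpinb2, an inhibitor of plasminogen activators, read 23.6, 104 and 124 FPKM in KO CMS and 79.7, 6.58 and 2.82 FPKM in KO FBS (1.52, edgeR adjusted p = 0.405, and 4.23, adjusted p = 0.00473). CMS replicate 1 was the lowest stretched library for Nos2, Cxcl2 and Serpinb2, so the stretched libraries spread as well.

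Some cytokines separated the groups in both fits. Of 36 cytokines and chemokines 1 was higher and 6 were lower with all libraries, and 7 and 6 without replicate 1. The list's median was -0.22 with all libraries and 0.47 without replicate 1. The higher gene with all libraries was Il1rn, the antagonist of the interleukin-1 receptor, with 656, 781 and 812 FPKM in KO CMS and 318, 220 and 176 FPKM in KO FBS (log2 fold change 1.70, edgeR adjusted p = 0.00271). Il18, a cytokine of the interleukin-1 family, read 3.51, 2.75 and 3.53 FPKM in KO CMS and 20.0, 11.7 and 11.0 FPKM in KO FBS (-2.08, edgeR adjusted p = 0.00161). Ccl12, a monocyte chemokine, read 4.70, 3.18 and 5.66 FPKM in KO CMS and 41.5, 37.5 and 27.3 FPKM in KO FBS (-2.92, edgeR adjusted p = 0.000492). For Il18 and Ccl12 replicate 1 was the serum library farthest from stretch. Among 19 interferon-stimulated genes Oasl was higher (2.09, edgeR adjusted p = 0.00436), and Ifi47 (-1.73) and Irgm (-0.37) were among the 3 lower ones, and without replicate 1 the counts were 4 and 3. Of 25 matrix proteases and inhibitors 2 were higher and 3 lower with all libraries, and 10 and 4 without replicate 1. The stromelysin Mmp3 was among those 10 (1.40, edgeR adjusted p = 0.0384).

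**Figure D3:**
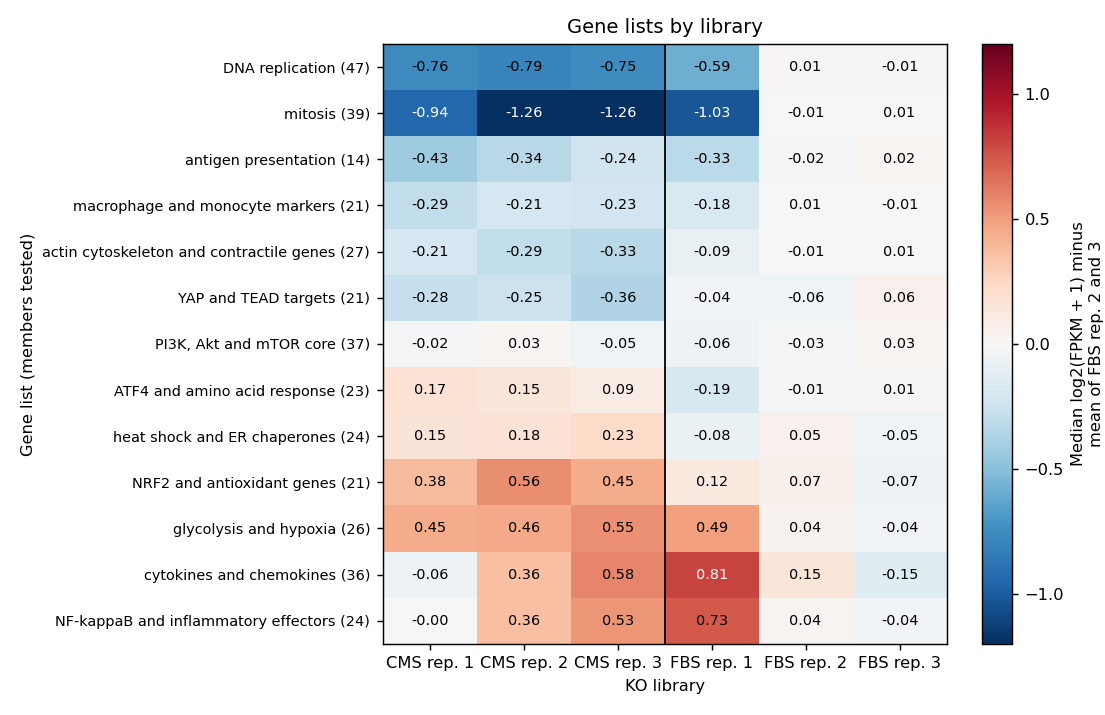
Median over the tested members of each list of log2(FPKM + 1) in each KO library, relative to the mean of KO FBS replicates 2 and 3, with CMS left of FBS. For mitosis KO FBS replicate 1 stands at -1.03 and the CMS libraries between -1.26 and -0.94, while for DNA replication they stand at -0.59 and between -0.79 and -0.75.

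The position of KO FBS replicate 1 was put on a scale from 0, the mean of KO FBS replicates 2 and 3, to 1, the mean of KO CMS, on log2(FPKM + 1). It was taken for genes chosen without that library. Those genes were picked for a gap between KO CMS and KO FBS replicates 2 and 3. A left-out FBS library can therefore lie above 0 through the choice of genes alone. No such position was taken for replicate 2 or 3. Over the 554 genes past the adjusted p and 2-fold without it, its median position was 0.69 (quartiles 0.39 and 0.90), and for 372 of them (67.1%) it lay nearer to CMS or beyond. The median was 0.66 for the 156 genes higher in CMS and 0.69 for the 398 lower ones. Gene lists differed in this. Over the members past the limit without it, the position was -0.02 for 16 heat shock genes, 0.32 for 17 NRF2 targets and 0.36 for 16 actin genes. It was 0.67 for 8 antigen presentation genes, 0.79 for 47 DNA replication genes, 0.86 for 39 mitosis genes and 0.95 for 20 glycolysis genes. The 7 NF-kB targets had a median of 1.80, beyond the stretched libraries. The genes of a list share the libraries, so these medians are descriptions.

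**Figure D4:**
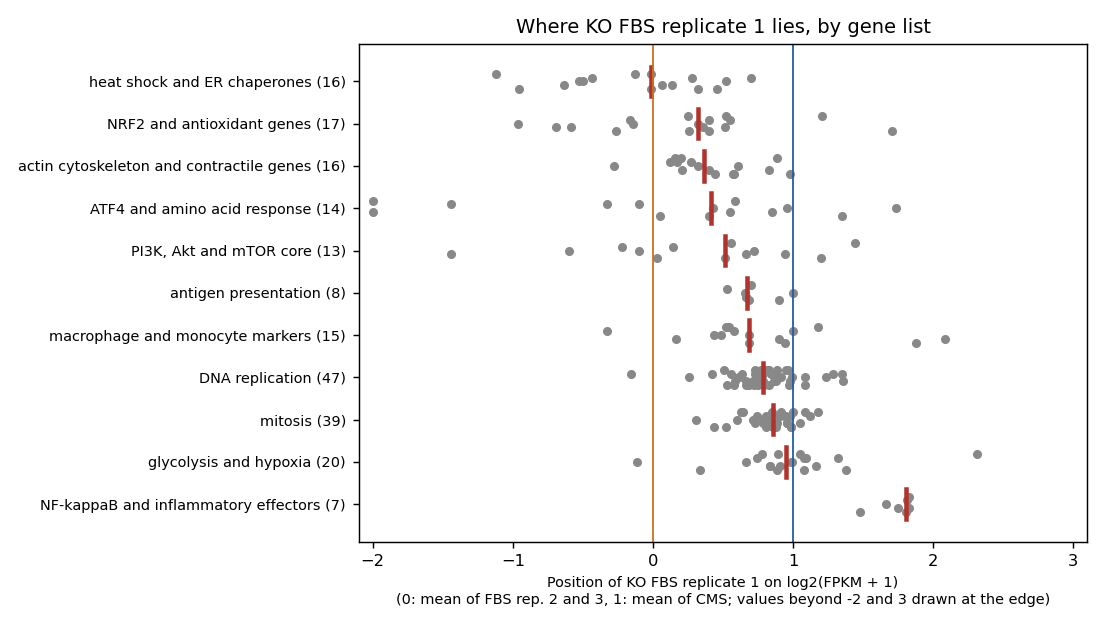
Position of KO FBS replicate 1 for the members of 11 gene lists past the adjusted p without it, where 0 (orange line) is the mean of KO FBS replicates 2 and 3 and 1 (blue line) the mean of KO CMS. Dots are genes and red bars medians, which run from -0.02 for heat shock genes to 0.95 for glycolysis genes, with NF-kB targets beyond them at 1.80.

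Among genes linked to mechanical load, more passed as lower than as higher in YAP targets and actin genes. Whether a difference goes with stretch or with FBS cannot be told apart for these genes either. Of 21 YAP and TEAD targets 6 were lower and 1 was higher with all libraries, and 9 and 3 without KO FBS replicate 1. Ccn1, a secreted matrix protein and YAP target, read 18.8, 15.2 and 15.4 FPKM in KO CMS, against 32.2, 28.8 and 31.8 FPKM in KO FBS (log2 fold change -0.86, SE 0.0863, edgeR adjusted p = 0.000685). The groups did not overlap, and replicate 1 lay with the other serum libraries. Ccn2, its relative, read 94.8, 66.6 and 58.8 FPKM in KO CMS and 76.2, 176 and 214 FPKM in KO FBS (-1.02, edgeR adjusted p = 0.0654, and -1.34 without replicate 1, adjusted p = 0.000993). The higher target was Tgfb2, a growth factor (0.40, edgeR adjusted p = 0.00815). Yap1 read 36.1, 40.2 and 41.5 FPKM in KO CMS and 35.9, 31.6 and 29.4 FPKM in KO FBS (0.33, edgeR adjusted p = 0.0475). Wwtr1, which encodes TAZ, read 20.9, 21.9 and 21.8 FPKM in KO CMS and 22.3 FPKM in each KO FBS library (0.00, SE 0.0466, edgeR adjusted p = 0.971).

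Of 13 stretch-sensitive channels and receptors Pkd2 (0.22) and Adgre5 (0.48) were higher and Trpc6 was lower, and the counts were 3 and 1 without replicate 1. The cation channel gene Trpc6 read 0.934, 0.619 and 0.678 FPKM in KO CMS and 1.67, 3.09 and 3.37 FPKM in KO FBS (log2 fold change -1.80, edgeR adjusted p = 0.00296). Piezo1, the best known stretch-gated channel, read 55.6, 69.8 and 70.3 FPKM in KO CMS and 76.6, 54.7 and 59.3 FPKM in KO FBS (0.08, SE 0.144, edgeR adjusted p = 0.737), with overlapping groups. Among 27 immediate early genes, which answer growth signals within minutes to hours, Dusp5 was higher (0.65) and 4 were lower with all libraries, but 8 were higher and 5 lower without replicate 1. Egr1, a serum-induced transcription factor, was lower (-0.87, edgeR adjusted p = 0.00338). Dusp6, a phosphatase that marks ERK activity, read 9.93, 9.23 and 10.4 FPKM in KO CMS and 18.5, 18.8 and 18.5 FPKM in KO FBS (-0.86, SE 0.0648, edgeR adjusted p = 0.00024). The other lower genes with all libraries were Ier2 (-0.24) and Nr4a1 (-0.71), the last named after its values were seen.

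Actin and contractile genes were lower for 10 of 27 members and higher for 2, Tes (0.35) and Cnn3 (0.27), the second named after its values were seen, and for 13 and 3 without replicate 1. Actb, beta-actin, read 1099.8, 1082.4 and 1106.2 FPKM in KO CMS, against 1659.5, 1851.3 and 1853.1 FPKM in KO FBS (log2 fold change -0.65, SE 0.0468, edgeR adjusted p = 0.00023). Myl9, a myosin light chain, read 5.94, 4.63 and 4.21 FPKM in KO CMS and 10.3, 13.9 and 12.8 FPKM in KO FBS (-1.27, edgeR adjusted p = 0.000904). Tagln (-0.63) and Acta2 (-0.84), smooth muscle contractile genes, were lower as well. Of 26 focal adhesion and integrin genes 2 were higher, the integrin Itgav (0.37) and Lims1 (0.43), and 2 were lower, Itga9 (-1.52) and Itga7 (-0.99). These shares are near the 6.73% and 8.09% of all genes tested. Without replicate 1 the focal adhesion counts were 7 and 4.

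Of 27 collagens and their enzymes 2 were lower with all libraries, a share near the 8.09% of all genes tested, and 0 were higher. The lower ones were Col8a1 (log2 fold change -0.61) and Col5a3 (-0.45). Without replicate 1, 8 were lower and 5 higher, among the higher the basement membrane collagen Col4a1 (0.48). Of 25 matricellular and adhesive matrix proteins 1 was higher and 4 were lower, and 2 and 6 without replicate 1. Thbs1, thrombospondin 1, was among the lower ones (-0.44, edgeR adjusted p = 0.0308). Spp1, osteopontin, read 2818.8, 2638.3 and 2505.6 FPKM in KO CMS and 1412.9, 2059.7 and 1806.0 FPKM in KO FBS (0.65, edgeR adjusted p = 0.00648), and was the higher one. Of 11 osteoblast genes 2 were higher, Spp1 and Atf4, and 2 lower, Tnfrsf11b, the decoy receptor osteoprotegerin (-0.93), and Postn (-0.30), with 2 and 3 without replicate 1. Runx2, the master factor of bone cells, read 5.58, 5.24 and 5.13 FPKM in KO CMS and 3.84, 5.03 and 5.84 FPKM in KO FBS (0.17, SE 0.132, edgeR adjusted p = 0.433). Among 11 chondrocyte and tendon genes Hapln1 (-1.28) and Col9a1 (-1.04) were lower, and without replicate 1 there were 5 lower and 1 higher.

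Of 37 PI3K, Akt and mTOR genes 6 were higher and 3 lower with all libraries, and 10 and 3 without KO FBS replicate 1. With all libraries the share of higher ones was above the 6.73% of all genes tested. The share of lower ones was near the 8.09% of all genes, and the list's median log2 fold change was 0.06. The lower ones were the catalytic subunits Pik3cg and Pik3cd and the phosphatase Inpp5d, genes known mainly from blood cells. Pik3cg read 7.33, 6.92 and 6.35 FPKM in KO CMS and 18.3, 14.7 and 16.2 FPKM in KO FBS (log2 fold change -1.21, SE 0.0951, edgeR adjusted p = 0.00029), and the other two had -0.95 and -0.68. Pik3cb, a catalytic subunit used in most cells, read 17.5, 20.0 and 20.8 FPKM in KO CMS and 14.7, 8.34 and 8.27 FPKM in KO FBS (0.94, edgeR adjusted p = 0.0244). The receptor substrates Irs1 (-0.02, SE 0.133, adjusted p = 0.931) and Irs2 (-0.06, SE 0.107, adjusted p = 0.739) did not pass, nor did Akt1 (0.09, SE 0.0363, adjusted p = 0.125) or Mtor (0.08, SE 0.0614, adjusted p = 0.438), all by edgeR. Among receptors Erbb3 was lower (-1.12), and among ligands Igf1, insulin-like growth factor 1, read 2.10, 2.61 and 2.02 FPKM in KO CMS and 3.99, 8.03 and 7.43 FPKM in KO FBS (-1.47, edgeR adjusted p = 0.00523).

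The difference between the KO and WT responses to stretch over serum was tested in a fit of all 18 libraries over 13194 genes, since an effect in one genotype alone does not show a difference. With all libraries 803 genes passed (6.09%), 301 with a higher value in KO (2.28%) and 502 with a lower one (3.8%), and 202 of the 803 differed by at least 2-fold (1.53%), 45 of them higher (0.341%) and 157 lower (1.19%). Without KO FBS replicate 1 the counts were 979 (7.42%) and 1071 (8.12%), and past 2-fold 480 (3.64%), with 164 higher (1.24%) and 316 lower (2.4%). In WT MSCs 1155 genes passed between CMS and FBS (8.94%), 505 higher (3.91%) and 650 lower (5.03%). Of these 28 were past 2-fold (0.217%), 3 higher (0.0232%) and 25 lower (0.194%). Of 1885 genes past the limit in KO among those tested in both, 459 passed in WT in the same direction, which is 24.4% of the KO genes and 40.1% of the 1145 WT genes. The 2 comparisons have no library in common, and over 12610 genes, which share their libraries, r of the log2 fold changes was 0.217, given as a description.

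**Figure D5:**
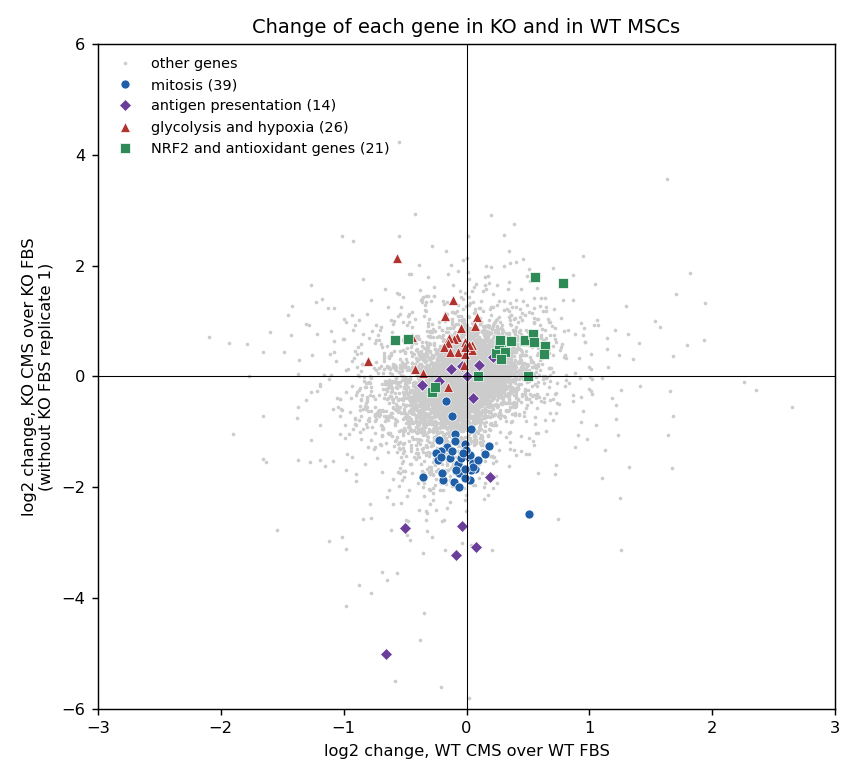
Log2 fold change of CMS over FBS for each gene in KO MSCs (vertical, without KO FBS replicate 1) and WT MSCs (horizontal), with members of 4 gene lists in colour and 30 of 12610 genes beyond the axes. Mitosis genes lie below 0 in KO, with a median of -1.48, and around a median of -0.06 in WT, while most NRF2 targets lie above 0 in both (medians 0.58 and 0.32).

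Class II and division genes were among those with a lower response in KO. RT1-Da read 21.8, 21.5 and 21.8 FPKM in WT CMS and 22.8, 18.8 and 20.7 FPKM in WT FBS (log2 fold change 0.07, edgeR adjusted p = 0.597), and its KO minus WT difference was -2.76 (edgeR adjusted p = 0.0031) and -3.16 without KO FBS replicate 1. Emilin2 had the smallest adjusted p of the difference, at -1.41 (edgeR adjusted p = 5.08e-06), with -0.02 in WT. Mki67 read 23.3, 21.4 and 22.4 FPKM in WT CMS and 21.2, 22.7 and 22.2 FPKM in WT FBS, and its difference was -1.55 (edgeR adjusted p = 0.0307) and -1.91 without KO FBS replicate 1 (adjusted p = 3.6e-06). All 6 WT values of Mki67 were above every one of the KO CMS and KO FBS values. Of the 39 mitosis genes 14 had a lower response in KO, and 38 without replicate 1. For DNA replication 10 of 47 did, and 39 without it.

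Hmox1 was higher in WT too (log2 fold change 0.56, edgeR adjusted p = 9.02e-05), and its response was larger in KO by 0.93 (edgeR adjusted p = 0.0117). Plin2 gave 0.60 in WT and a difference of 0.77 (edgeR adjusted p = 0.000351). Of the 21 NRF2 targets 16 were higher and 3 lower in WT, and 3 had a higher and 1 a lower response in KO. That one is Nqo1, which was higher in WT (0.50, edgeR adjusted p = 0.000627, difference -0.56, adjusted p = 0.00392). Ccn1 (-0.79 in WT) and Egr1 (-0.92 in WT) had differences of -0.08 (edgeR adjusted p = 0.749) and 0.05 (adjusted p = 0.93). In WT 0 glycolysis genes were higher and 3 lower, and 4 of 26 had a higher response in KO, or 19 without replicate 1. Of 24 NF-kB targets 0 were higher and 9 lower in WT (median log2 fold change -0.24), and 0 had a higher response in KO, or 12 without KO FBS replicate 1, on which that call rests. Of the 37 PI3K, Akt and mTOR genes 2 had a higher and 3 a lower response in KO, with differences of -0.95 for Pik3cg (edgeR adjusted p = 0.000299) and 0.91 for Pik3cb (adjusted p = 0.042).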

How the data were processed

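RNA was extracted with Trizol. The deposited tables of the authors, one per genotype, hold the read count per rat Ensembl gene, not normalised, and beside it the FPKM the authors made from it, with 1e-04 for a count of 0. Per the submitters' processing notes Bowtie 0.12.2 and mm10, a build of mouse, were used, with no role given. The sources used here do not give the aligner, counter, annotation or strand setting of these libraries, so no coordinates of the counted genes are printed, and overlapping or near-identical genes may share reads. Sequences are RefSeq's for GRCr8, matched by symbol.

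Counts were fitted with edgeR 4.0.16 (R 4.3.3), TMM scaling and the quasi-likelihood F test, in the 9 KO libraries together, for genes with FPKM of at least 1 in 3 of 9. P-values were adjusted by Benjamini-Hochberg over all genes tested. Standard errors come from the F statistic. Genotypes were compared as an interaction over 18 libraries, normalised together from counts in 2 tables. A fold against 0 counts puts 3 counts in each library. Depth in KO CMS and FBS was 56.08 to 71.08 M counts per library.

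Genes were named by a rule: in each of the KO fits the 10 highest, 10 lowest and 10 smallest adjusted p, the 10 smallest for the difference, the 3 most abundant and 4 smallest adjusted p of each list, and genes the study is about. Not all are named, and exceptions are marked. Some genes are not reported here. The members, lists and rule were chosen with earlier results of these data known, and KO FBS replicate 1 was singled out then. Lists for the imprinted region and erythroid cells had 0 tested members. Where 1 name stood on several lines (1556 names), the Ensembl identifier was used.

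The fit was tested on simulated data. Alternatives were DESeq2 1.42.0, limma 3.58.1 on log2(FPKM + 0.1, 1 or 5), other scalings and filters, CMS and FBS libraries alone, the replicate number as a block and each library left out. For same-numbered CMS and FBS libraries, the correlations of deviations from the group mean were -0.24, 0.04 and -0.17. With 3 libraries a group these cannot decide whether the replicate numbers pair the libraries. Figures used Python 3.11.15 and matplotlib 3.10.9.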

Additional observations from a re-analysis of the deposited data

Results flagged for a closer look

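The difference between the KO and WT responses to CMS over FBS passed its own test past 2-fold for 202 genes (edgeR, adjusted over 13194 genes), and the 10 with the smallest adjusted p follow. Stab1, Fes, Rasgrp4, Alox5ap and Tlr8 are known from blood cells, and the part of cell composition was not tested. Emilin2, a matrix glycoprotein, differed by -1.41 on the log2 scale (SE 0.0976, adjusted p = 5.08e-06). ENSRNOG00000036296, annotated as a miRNA, differed by -5.77 (SE 0.469, adjusted p = 2.26e-05), with 0.0383, 0.0322 and 0.0360 FPKM in KO CMS and 7.98, 7.41 and 11.9 FPKM in KO FBS. It had 1 count in each KO CMS library and 52, 52 and 73 counts in KO FBS, so the size of its difference rests on values at the floor. Stab1 differed by -1.95 (adjusted p = 5.82e-05), the tyrosine kinase Fes by -1.71 (adjusted p = 6.48e-05) and Rasgrp4, an activator of Ras, by -1.58 (adjusted p = 6.53e-05). Alox5ap differed by -1.72 and ENSRNOG00000024294, annotated as a pseudogene, by 1.84 (adjusted p = 7.69e-05 for each). The lysosomal membrane gene Gpr137b had a higher response in KO, by 1.05 (adjusted p = 0.000125). Tlr8, a sensor of single-stranded RNA, differed by -1.02 and RGD1559575 by -1.11 (adjusted p = 0.000199 for each). Without KO FBS replicate 1 all 10 kept their sign and passed, with Emilin2 at -1.39 and Gpr137b at 1.08.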

How the results depend on the processing

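No gene named by the rule changed direction while past the adjusted p, under the alternatives that were run. List medians that changed sign without KO FBS replicate 1 were those of cytokines (-0.22 and 0.47 without it), growth factor ligands (-0.09 and 0.13), interferon-stimulated genes (-0.05 and 0.01) and sterol genes (0.03 and -0.07). The counts of genes moved. In KO MSCs the 1910 genes past the adjusted p became 891 with only the CMS and FBS libraries and 1227 with the replicate number as a block, and 879 to 3158 with 1 library left out. That range was 1064 without KO FBS replicate 2, 1079 without replicate 3, 965 without KO CMS replicate 2, 879 without KO CMS replicate 3 and 3158 without KO FBS replicate 1. The 337 past 2-fold as well became 216 when FPKM had to reach 5, 147 and 47 with limma at pseudocounts of 1 and 5, 206 with CMS and FBS libraries only and 198 to 554 with 1 library left out. Without KO FBS replicate 1, the 3158 genes ranged from 1614 to 3734 with a further library left out, where a lone FBS library is assumed to vary like the other groups. The 554 past 2-fold became 350 when FPKM had to reach 5, 315 and 105 with limma at pseudocounts of 1 and 5, and 426 to 668 with a library left out. For the difference of KO and WT, the 803 genes became 1241 with DESeq2, 341 with only CMS and FBS libraries and 508 to 2050 with 1 library left out, and the 202 past 2-fold became 76 with limma at a pseudocount of 1, 93 with CMS and FBS libraries only and 120 to 480. The fits with the replicate block gave 2378 genes without KO FBS replicate 1 and 558 for the difference. The numbers are not known to mark a shared culture. The cause of these moves was not tested, and 3 libraries a group limit what a count can say.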
